A study of Mus musculus with 12 samples.

Results

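The genes of the VEGF and angiopoietin ligands and their receptors were examined as a family of 10: the ligands *Vegfa*, *Vegfb*, *Vegfc* and *Pgf*, the VEGF receptors *Flt1*, *Kdr* and *Flt4*, the angiopoietins *Angpt1* and *Angpt2*, and the angiopoietin receptor *Tek*. They were found by an exact match of the gene symbol among the 54833 genes of the count table, each symbol gave 1 row, and all 10 passed the filter on low counts along with 21485 other genes. The question put to them was how the vessel growth and vessel stability genes of the tissue around a hematoma stood 24 h after intracerebral hemorrhage (ICH), in young and in aged mice.

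The 12 libraries came from ipsilateral caudate putamen of male wild-type C57BL/6 mice in 4 groups of 3: sham and ICH mice that were young (8 to 10 weeks) and sham and ICH mice that were aged (20 to 22 months). ICH was induced with collagenase type IV, which breaks down the matrix of small vessel walls, and sham mice received saline. Each library pooled the tissue of 2 or 3 mice, so the spread reported below is between pools, and each age was represented by 1 strain and 1 sex at 1 time after injury. As an injected enzyme opens the vessels in this model, the vessels themselves are part of what was injured.

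As background, VEGF ligands act on tyrosine kinase receptors that sit mainly on endothelial cells. VEGF-A, encoded by *Vegfa*, drives vessel growth and leakage through VEGFR2 (*Kdr*), while VEGFR1 (*Flt1*) binds VEGF-A, VEGF-B (*Vegfb*) and placental growth factor (*Pgf*) and can hold VEGF-A away from VEGFR2, and VEGFR3 (*Flt4*) is the receptor of VEGF-C (*Vegfc*) and is known from lymphatic vessels and sprouting tips. Angiopoietin-1 (*Angpt1*) keeps vessels quiet by activating TIE2 (*Tek*), and angiopoietin-2 (*Angpt2*), stored and released by endothelial cells, competes with it at the same receptor. In the adult brain VEGF-A comes largely from astrocytes and neurons, and a shift from angiopoietin-1 to angiopoietin-2 is known from leaky or remodelling vessels.

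The genes lie on 8 chromosomes of GRCm38. *Flt1* (chr5:147561604-147726011) and *Kdr* (chr5:75932827-75978458) share chromosome 5, both on the minus strand, and *Vegfc* and *Angpt2* share chromosome 8. *Angpt2* (chr8:18690263-18741562, minus strand) lies inside *Mcph1* on the opposite strand and shares 0 exon bases with it. *Angpt1* (chr15:42424723-42676977) shares 737 exon bases with the antisense gene *Gm17473*. No source used here gives the strand setting of the counting, so reads from that stretch cannot be told apart. Splice forms, such as the soluble form of VEGFR1 or the VEGF-A isoforms, are summed in these gene counts.

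The sequences just before the transcription start are given for the receptors *Flt1* and *Kdr*, with the letters of the hypoxia response core marked. RefSeq promoters of GRCm38.p6 were given for 8 of the 10 genes, all but *Angpt1* and *Angpt2*. Each line gives the 250 bases before the start, 5′ to 3′ in the direction of the gene, and capitals mark the core GCGTG or its reverse complement.
Flt1 (chr5:147726012-147726261, minus strand): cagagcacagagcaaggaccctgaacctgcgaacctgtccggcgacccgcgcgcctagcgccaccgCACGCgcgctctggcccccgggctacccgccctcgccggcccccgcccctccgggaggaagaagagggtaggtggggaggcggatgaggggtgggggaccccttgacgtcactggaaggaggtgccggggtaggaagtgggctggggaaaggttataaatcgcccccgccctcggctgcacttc
Kdr (chr5:75978456-75978705, minus strand): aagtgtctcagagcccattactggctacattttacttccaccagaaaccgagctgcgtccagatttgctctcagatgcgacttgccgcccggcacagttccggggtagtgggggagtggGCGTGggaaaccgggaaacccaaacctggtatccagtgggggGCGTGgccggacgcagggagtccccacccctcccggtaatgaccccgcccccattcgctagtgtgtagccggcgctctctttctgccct

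The cores ACGTG and GCGTG were searched on both strands from 250 bases before to 50 bases after each start. *Flt1* had 1 GCGTG, on the opposite strand, *Kdr* had 2 and *Vegfb* had 2, and *Pgf* had 1, whereas ACGTG was in none of the 8. At least 1 of these cores was thus in 4 of the 8, against 43.8% of 32851 promoters of the same length. The GC box GGGCGG was in 7 of the 8, all but *Tek*, against 35.7% of all promoters, and the ETS core GGAAG was in 5 of the 8 against 71.4%. The forkhead letters TGTTTAC and the AP-1 letters TGANTCA were in none of the 8, and in 3.65% and 7.81% of all promoters. Of the genes called after ICH, *Pgf* and *Flt1* held a hypoxia core and *Flt4* held neither, while *Kdr* and *Vegfb*, which were not called, held 2 each. A link between these cores and the changes after ICH was not tested. The RefSeq starts of *Pgf* and *Flt4* lie 477 and 416 bases from the start of the gene in GENCODE, and all 250 bases before them are annotated as exon there, so their windows need not be the promoter in use.

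Depth ranged from 28410896 to 37785160 counts on genes per library. Markers of the endothelium, the cell type of the receptors, were present in every library, with a summed level of 12 markers from 402 to 648 CPM (counts scaled to the normalized size of the library). Choroid plexus markers (*Ttr*, *Folr1*, *Kl* and *Clic6*) set 3 libraries apart: they summed to 4020 CPM in young ICH replicate 3, 1538 in aged ICH replicate 1 and 1954 in aged ICH replicate 2, against 9.22 to 480.1 CPM in the other 9. Counts of calls are given below with and without these 3 libraries. Markers of striatal neurons (7 genes, among them *Drd1* and *Drd2*) summed to 1008 to 2067 CPM in the sham libraries and 240.2 to 1420 CPM in the ICH libraries, with 0 of 7 called after ICH at either age. In bulk tissue, fewer cells of a type and less RNA per cell cannot be told apart.

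Levels of different genes were compared as FPKM (fragment counts divided by the length of the gene's transcript and by the mapped total of the library). *Vegfa* and *Vegfb* were the most abundant of the 10 in every group, and *Flt1* was the third. In the young sham group the order was *Vegfa* 18.0 ± 0.605, *Vegfb* 17.00 ± 1.79, *Flt1* 6.56 ± 1.09, *Tek* 3.85 ± 0.115 and *Kdr* 1.61 ± 0.354 FPKM (mean ± SD, n = 3), and the other 5 genes lay between 0.634 and 0.989 FPKM on average. The ranges of *Vegfa* and *Vegfb* overlapped there, the steps from *Vegfb* to *Flt1*, *Tek*, *Kdr* and *Vegfc* were separate, and the neighbours below *Vegfc* (*Angpt1*, *Pgf*, *Flt4* and *Angpt2*) overlapped in turn. *Angpt2* was thus the lowest of the 10 in young sham tissue, whereas in aged ICH tissue it stood next after *Flt1* at 3.35 ± 0.279 FPKM, level with *Tek* at 3.33 ± 0.736 FPKM. Compared with all genes tested, the mean over the 12 libraries lay above 89.0% of genes for *Vegfa*, 73.9% for *Flt1*, 41.7% for *Angpt2* and 30.7% for *Angpt1*, the lowest of the family.

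**Figure D1:**
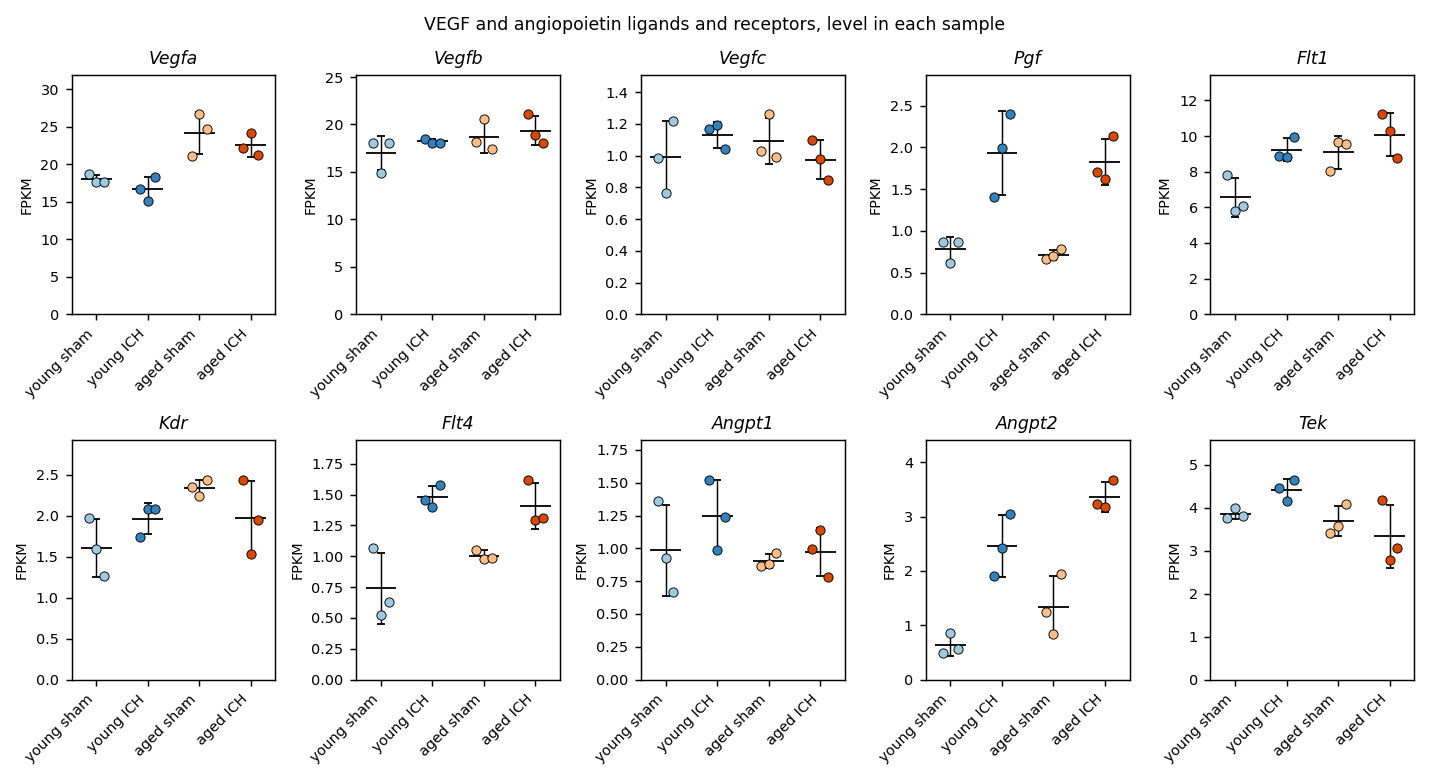
FPKM of the 10 genes in each of the 12 libraries, by group (x axis), with points for libraries, long bars for the mean and error bars for the SD (n = 3); each panel has its own axis from 0. *Pgf* and *Angpt2* rose with ICH at both ages, and the *Vegfa* points of each aged group lie above those of the young group with the same surgery.

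The first comparison asked what ICH did in young mice. The test was the quasi-likelihood test of edgeR on the counts of all 4 groups, and a gene was called at a Benjamini-Hochberg adjusted *P* under 0.05 over all genes tested. Of the 10 genes, 4 were called higher in young ICH than in young sham mice and 0 lower, when 9.89% of all genes were called higher and 9.23% lower. The 4 were *Angpt2*, *Pgf*, *Flt4* and *Flt1*. In CPM, every ICH library was above every sham library for these 4 and below for 1, *Vegfa*. Over all genes, 18.5% and 16.5% were separated in that way in CPM. In FPKM these 4 were also separated, as were *Vegfb* and *Tek* with ICH the higher, whereas *Vegfa* overlapped. The median log2FC (log2 fold change) of the 10 was 0.22, against 0.02 over all genes tested.

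Among the ligands, *Pgf*, a VEGFR1 ligand, measured 0.866, 0.614 and 0.864 FPKM in the young sham libraries and 1.40, 1.996 and 2.39 FPKM in the young ICH libraries. The groups did not overlap, and the lowest ICH library exceeded every sham library. *Pgf* rose 2.31-fold (log2FC 1.21 ± 0.21, SE; edgeR adjusted *P* = 0.00373). *Vegfa* measured 18.7, 17.7 and 17.7 FPKM in young sham and 16.8, 15.1 and 18.3 FPKM in young ICH. In CPM, which was scaled to the normalized size of the library, the groups did not overlap and ICH was the lower (log2FC −0.20 ± 0.09). The gene was not called (edgeR adjusted *P* = 0.133). *Vegfb* had a log2FC of 0.01 (95% confidence interval −0.19 to 0.22) and *Vegfc* of 0.11 (−0.31 to 0.52), and their groups overlapped in CPM. In FPKM *Vegfc* overlapped as well, whereas the *Vegfb* libraries of young ICH (18.07 to 18.52) lay just above those of young sham (14.94 to 18.06).

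Of the receptors, *Flt4* measured 1.07, 0.525 and 0.625 FPKM in young sham and 1.45, 1.40 and 1.58 FPKM in young ICH. All 3 ICH libraries were above the sham libraries, of which replicate 1 was the highest. *Flt4* rose 1.87-fold (log2FC 0.90 ± 0.21; edgeR adjusted *P* = 0.0132). *Flt1* measured 7.81, 5.80 and 6.07 FPKM in young sham and 8.88, 8.85 and 9.97 FPKM in young ICH, with no overlap. Its change was smaller, 1.32-fold (log2FC 0.40 ± 0.12; edgeR adjusted *P* = 0.0370). *Kdr*, the main signalling receptor of VEGF-A, had a log2FC of 0.20 (−0.19 to 0.58), and young ICH values of 1.74, 2.08 and 2.08 FPKM overlapped those of young sham at 1.97, 1.59 and 1.27 FPKM. The intervals of *Flt1* and *Kdr* overlapped, and whether the 2 receptors changed by different amounts was examined only as a ratio, given below.

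*Angpt2*, the antagonist at TIE2, had the largest change of the 10. It measured 0.481, 0.852 and 0.568 FPKM in young sham and 1.90, 2.42 and 3.05 FPKM in young ICH. The lowest ICH library held over 2-fold the level of the highest sham library. *Angpt2* rose 3.64-fold (log2FC 1.86 ± 0.30; edgeR adjusted *P* = 0.00269). *Angpt1* and *Tek* were not called, with a log2FC of 0.25 (−0.28 to 0.78) and 0.11 (−0.17 to 0.39). In CPM the groups overlapped for both genes. In FPKM *Angpt1* overlapped as well, whereas every young ICH library (4.16 to 4.64) was above every young sham library (3.76 to 3.98) for *Tek*.

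The receptor calls in young mice depended on the libraries used. Without the 3 libraries high in choroid plexus markers, an alternative chosen after the data were seen, *Angpt2* (log2FC 1.69) and *Pgf* (log2FC 1.04) were the 2 genes still called, when 2199 of 22844 genes were called against 4110 of 21495 with all libraries, and *Flt1* (edgeR adjusted *P* = 0.104) and *Flt4* (edgeR adjusted *P* = 0.0576) were not. *Angpt2* and *Pgf* were also the 2 left without young sham replicate 2 or 3. *Flt1* also lost its call without any single young ICH library or aged sham replicate 3 (edgeR adjusted *P* from 0.05003 to 0.146 over these 6 fits), while its log2FC stayed between 0.32 and 0.43. The study had used a fold of 1.5 together with *P* under 0.05 before adjustment, on DESeq2 results. Applied here to the edgeR values, these thresholds gave 3 upregulated genes (8.66% of all genes), as *Flt1* fell short of the fold.

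In aged mice, 2 of the 10 genes were called higher in aged ICH than in aged sham and 0 lower, when 7% of all genes were called higher and 6.15% lower. These were *Pgf* and *Angpt2*. In CPM the groups did not overlap for 3 genes, *Flt4* as the third, with ICH the higher, and for 0 with ICH the lower. Over all genes, 17.8% and 17.3% were separated in that way in CPM. The median log2FC of the 10 was 0.01, against 0.00 over all genes tested. *Flt1* and *Flt4*, called in young mice, did not reach an adjusted *P* under 0.05.

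*Pgf* measured 0.668, 0.696 and 0.783 FPKM in aged sham and 1.71, 1.62 and 2.13 FPKM in aged ICH. The 2 groups did not overlap, and all 3 sham libraries lay close together. The rise was 2.42-fold (log2FC 1.28 ± 0.21; edgeR adjusted *P* = 0.00576). *Angpt2* measured 1.24, 0.835 and 1.95 FPKM in aged sham and 3.22, 3.17 and 3.68 FPKM in aged ICH. Sham libraries were spread wide while the ICH libraries were close to each other, and the groups did not overlap. The rise was 2.39-fold (log2FC 1.25 ± 0.28; edgeR adjusted *P* = 0.0168). This call was lost when any of 4 libraries was left out: replicates 1 and 3 of aged ICH (edgeR adjusted *P* = 0.0568 and 0.0569) and replicates 1 and 2 of aged sham (edgeR adjusted *P* = 0.0636 and 0.0520). With the 3 choroid-rich libraries left out, which leaves aged ICH replicate 3 alone in its group and assumes that it varies like the other groups, *Pgf* was the 1 gene called and *Angpt2* had a log2FC of 1.40 (edgeR adjusted *P* = 0.0964). Calls over all genes in that fit were 431 of 22844, against 2828 of 21495 with all libraries.

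The VEGF receptors in aged mice gave values on both sides of 0. *Flt4* was higher in every aged ICH library (1.62, 1.30 and 1.31 FPKM) than in any aged sham library (1.05, 0.974 and 0.985 FPKM), with a log2FC of 0.42 ± 0.21 (edgeR adjusted *P* = 0.212), and without young sham replicate 1, which enters this comparison only through the shared spread, it was called (edgeR adjusted *P* = 0.0438). *Flt1* measured 8.03, 9.69 and 9.53 FPKM in aged sham and 11.2, 10.3 and 8.78 FPKM in aged ICH, with overlap and a log2FC of 0.08 (−0.18 to 0.34). *Kdr* measured 2.35, 2.23 and 2.44 FPKM in aged sham and 2.44, 1.53 and 1.95 FPKM in aged ICH. Its sham libraries agreed closely and its ICH libraries did not, and the log2FC was −0.31 (−0.69 to 0.07). *Tek* measured 3.42, 3.58 and 4.09 FPKM in aged sham and 4.16, 2.77 and 3.06 FPKM in aged ICH. Its log2FC was −0.22 (−0.50 to 0.07). Without aged ICH replicate 1, the highest of its group for both receptors, *Tek* was called lower with a log2FC of −0.41.

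The other ligands were not called in aged mice. *Vegfa* measured 21.2, 26.6 and 24.8 FPKM in aged sham and 22.2, 24.1 and 21.2 FPKM in aged ICH, and the log2FC was −0.17 (−0.36 to 0.02). *Vegfc* had a log2FC of −0.23 (−0.65 to 0.18), *Vegfb* of −0.02 (−0.23 to 0.18) and *Angpt1* of 0.03 (−0.50 to 0.57).

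**Figure D2:**
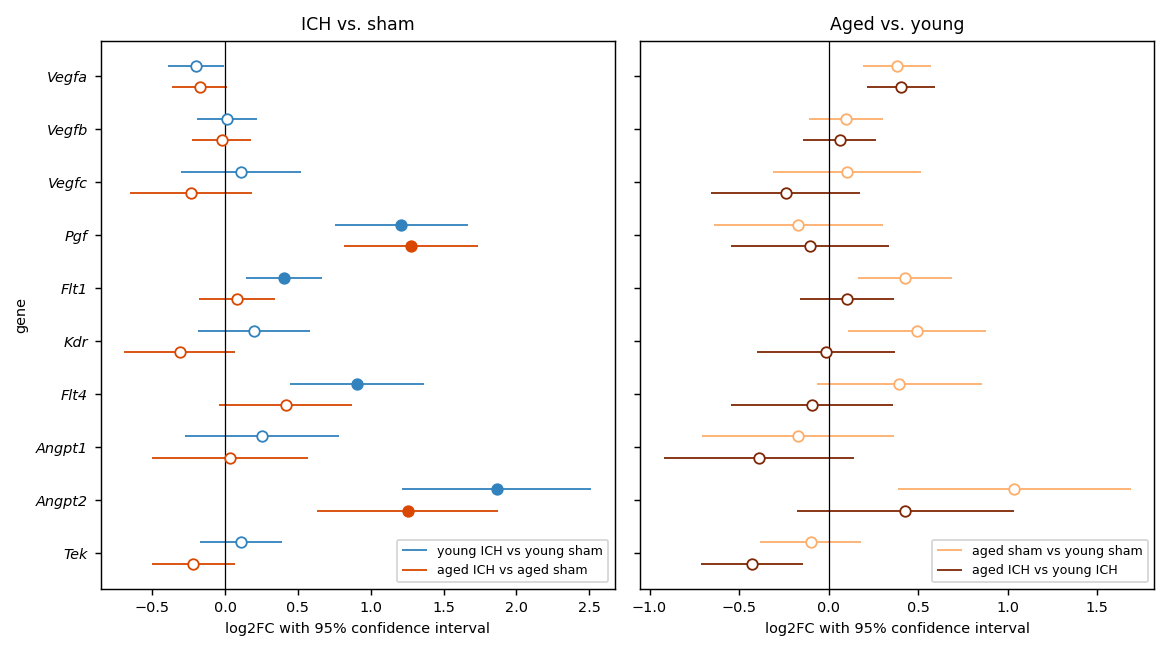
log2FC of the 10 genes (points) with 95% confidence intervals (lines) from edgeR, for ICH vs. sham in young and aged mice (left) and for aged vs. young mice under sham and ICH (right); filled points mark an adjusted *P* under 0.05. *Angpt2* and *Pgf* were called at both ages and *Flt4* and *Flt1* in young mice, and no point is filled in the age comparisons.

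Whether the response to ICH differed between ages was tested as an interaction in the same fit. None of the 10 genes was called by edgeR, 0 had an unadjusted *P* under 0.05, and 0% of all genes were called; DESeq2 also called 0 of the 10. The aged response was the lower for *Angpt2* by 0.61 on the log2 scale, with an interval from −1.50 to 0.28. For *Kdr* the difference was −0.51 (−1.05 to 0.03), for *Flt4* −0.49 (−1.13 to 0.16), for *Tek* −0.33 (−0.73 to 0.07) and for *Flt1* −0.32 (−0.69 to 0.05). *Pgf* had a difference of 0.07 (−0.58 to 0.71). The intervals therefore leave room for responses that are equal and for responses that differ, and the receptor calls seen at only 1 age are not shown to be particular to it.

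Aged and young mice were compared next without and with ICH; these comparisons share samples with those above. In aged sham vs. young sham mice, 0 of the 10 genes were called by edgeR, when 0.102% of all genes were. *Vegfa* was higher in every aged sham library (21.2 to 26.6 FPKM) than in any young sham library (17.7 to 18.7 FPKM), with a log2FC of 0.38 ± 0.09 (edgeR adjusted *P* = 0.162). *Flt1* and *Kdr* also had no overlap, with aged sham the higher by a log2FC of 0.43 ± 0.12 for the former and 0.49 ± 0.18 for the latter (adjusted *P* by edgeR 0.223 and 0.297). In CPM these 3 were the genes with aged sham separated above, and 0 were separated below, when 9.81% and 11.2% of all genes were. *Angpt2* differed most, with a log2FC of 1.04 ± 0.30 (edgeR adjusted *P* = 0.223), but its lowest aged library, at 0.835 FPKM, was below the highest young library, at 0.852 FPKM. DESeq2, run as an alternative test, called 2 of the 10, *Vegfa* (log2FC 0.37, DESeq2 adjusted *P* = 0.0183) and *Angpt2* (log2FC 1.03, DESeq2 adjusted *P* = 0.0348). The thresholds of the study, applied to the edgeR values, were met by *Angpt2* alone, and by 2.82% of all genes in that direction.

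In aged ICH vs. young ICH mice, 0 of the 10 genes were called by edgeR, when 0.0558% of all genes were. *Vegfa* was again higher in each aged library (21.2 to 24.1 FPKM) than in each young library (15.1 to 18.3 FPKM), with a log2FC of 0.41 ± 0.09 (edgeR adjusted *P* = 0.161; DESeq2 adjusted *P* = 0.0118, its 1 call). *Tek* had the opposite sign, log2FC −0.43 ± 0.13 (edgeR adjusted *P* = 0.324). In CPM all 3 aged ICH libraries were below the young ICH libraries, although in FPKM aged ICH replicate 1, at 4.16, lay level with the lowest young ICH library, at 4.16. *Angpt2* was higher in every aged ICH library (log2FC 0.43 ± 0.28; edgeR adjusted *P* = 0.658). On the CPM scale 2 genes were thus separated upward and 1 downward, against 6.9% and 6.42% of all genes. *Flt1*, *Kdr* and *Flt4* had a log2FC of 0.10, −0.01 and −0.09 with overlapping groups.

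The balance of the 2 angiopoietins was followed as the ratio of *Angpt2* to *Angpt1* FPKM in each library. It was 0.359, 0.918 and 0.856 in young sham and 1.25, 2.45 and 2.45 in young ICH. In aged sham it was 1.43, 0.951 and 2.005, and in aged ICH 3.22, 2.76 and 4.67. Young sham libraries held less *Angpt2* than *Angpt1* and aged ICH libraries held over 2-fold more. ICH moved the ratio by 2.98-fold in young and 2.48-fold in aged mice, and age moved it by 2.13-fold under sham and 1.77-fold under ICH. All 4 pairs of groups were separate, each with a two-sided exact permutation *P* of 0.1, the smallest that 3 against 3 allows, so that no adjustment over the 4 could bring it under 0.05. The lower value of young sham replicate 1 came with the highest *Angpt1* of its group, 1.36 FPKM, and with the lowest *Angpt2*, 0.481 FPKM.

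The ratio of *Pgf* to *Vegfa* FPKM was 0.0468, 0.0353 and 0.0495 in young sham and 0.0841, 0.133 and 0.131 in young ICH. For aged mice it was 0.0320, 0.0265 and 0.0320 under sham and 0.0775, 0.0677 and 0.101 under ICH. *Vegfa* stayed the more abundant of the 2 in every library. ICH moved the ratio by 2.62-fold in young and 2.69-fold in aged mice (exact permutation *P* = 0.1 for both, with no overlap). Aged sham was below young sham by 1.44-fold (exact permutation *P* = 0.1).

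*Flt1* exceeded *Kdr* in all 12 libraries, and their ratio lay between 3.41 and 6.66. It differed with ICH by 1.147-fold in young mice, where the groups overlapped (exact permutation *P* = 0.2), and by 1.33-fold in aged mice, where they did not (exact permutation *P* = 0.1). Neither age comparison separated the groups (exact permutation *P* = 0.6 under sham and 0.7 under ICH).

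**Figure D3:**
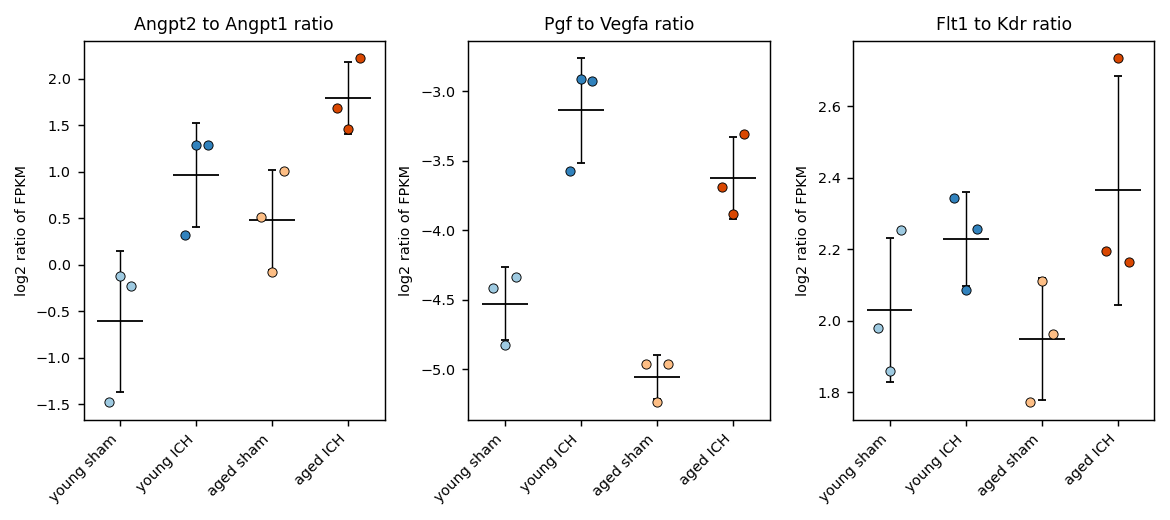
log2 ratio of FPKM in each of the 12 libraries for *Angpt2* to *Angpt1*, *Pgf* to *Vegfa* and *Flt1* to *Kdr*, by group, with points for libraries, long bars for the mean and error bars for the SD (n = 3). The *Angpt2* to *Angpt1* ratio was separate in all 4 pairs of groups that were compared, and the *Pgf* to *Vegfa* ratio between ICH and sham at both ages.

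Most endothelial markers were higher after ICH, and the receptors and *Angpt2* were also set against the mean of the markers. Of the 12, 9 were called higher in young and 7 in aged ICH mice and 0 lower, when 9.89% and 7% of all genes were called higher. *Pecam1*, an endothelial adhesion molecule, had a log2FC of 0.76 and 0.62, and *Cldn5*, a tight junction protein of brain endothelium, of 0.64 and 0.47. The blood-brain barrier transporter genes *Slco1a4* and *Abcb1a* did not follow. *Slco1a4* had a log2FC of −0.18 in young and −0.23 in aged mice and *Abcb1a* of 0.00 and −0.17, and in aged mice every ICH library was below every sham library for both, without a call. *Ocln* was called at neither age, and *Erg* and *Ly6c1* were not called in aged mice. The aged log2FC of *Tek*, −0.22, thus lay near those of *Slco1a4* and *Abcb1a* and below those of the other 10 markers. The mean log2 CPM of the 12 markers was higher by 0.47 in young and 0.33 in aged ICH mice (exact permutation *P* = 0.1 each). The share of endothelial cells in these changes was not tested.

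Measured as log2 CPM less that mean, *Angpt2* stayed higher after ICH, by 1.39 in young and 0.99 in aged mice. *Tek* was lower relative to the markers, by −0.36 in young and −0.57 in aged mice, and its groups did not overlap at either age. *Kdr* was lower by −0.67 in aged mice without overlap, whereas in young mice the difference of −0.25 came with overlapping groups. *Flt1* differed by −0.05 with overlap in young and by −0.26 without overlap in aged mice. *Flt4* was higher by 0.50 in young mice without overlap, and differed by 0.07 with overlap in aged mice. Each of the separated differences had an exact permutation *P* of 0.1, the smallest possible. In aged sham mice *Flt1* and *Kdr* were above their young sham levels on this scale as well, by 0.36 and 0.44, and *Tek* was below, by −0.18, each without overlap. In aged ICH vs. young ICH mice *Flt1* was higher by 0.16, *Angpt2* higher by 0.50 and *Tek* lower by −0.39 without overlap, whereas *Kdr* (0.02) and *Flt4* (−0.04) overlapped. For *Flt4* (0.39) and *Angpt2* (0.90) the sham groups of the 2 ages overlapped.

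**Figure D4:**
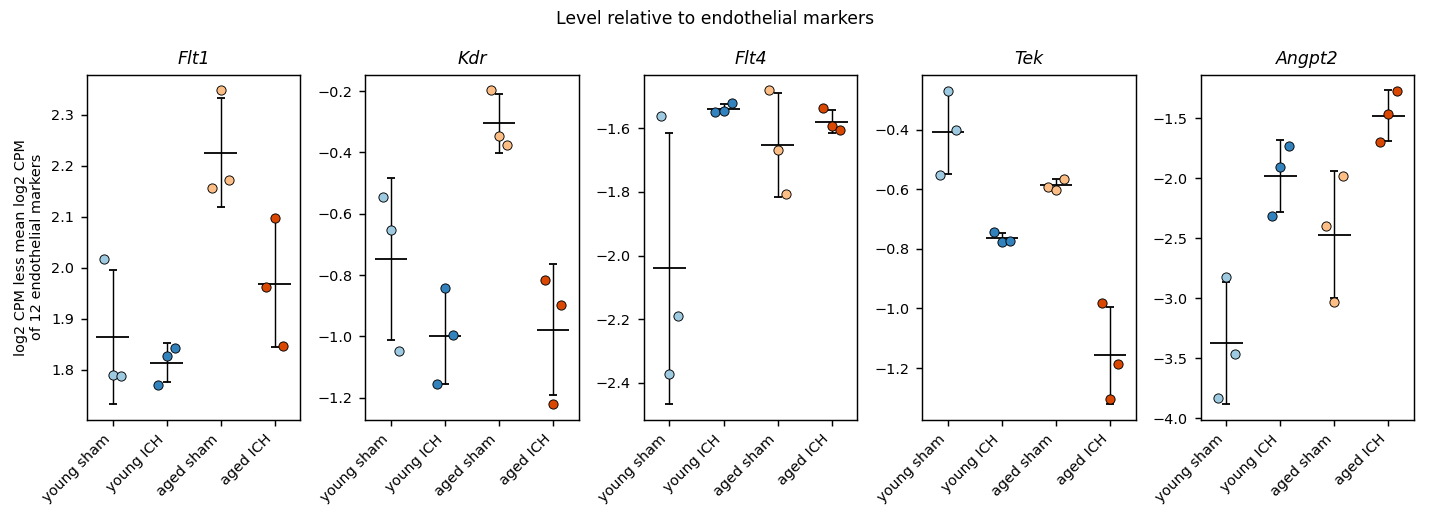
Level of *Flt1*, *Kdr*, *Flt4*, *Tek* and *Angpt2* relative to 12 endothelial markers (y axis, log2 CPM less the mean log2 CPM of the markers; panels have their own ranges) in each library by group, with long bars for the mean and error bars for the SD (n = 3). Relative to the markers, *Angpt2* was higher and *Tek* lower after ICH at both ages. The log2FC of *Tek* itself was 0.11 in young and −0.22 in aged mice, without a call.

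Markers of other cells moved in the same comparisons, and their part in the values of the family was not tested. Neutrophil markers (8 genes) summed to 0.94 to 2.0 CPM in young sham, 7.0 to 17.1 in young ICH, 2.8 to 10.5 in aged sham and 19.0 to 29.0 in aged ICH. Monocyte markers were called higher for 4 of 7 genes at both ages, and astrocyte markers for 4 of 6 in young and 2 of 6 in aged mice, with 1 of 6 lower in the latter. Microglial markers were called lower for 2 of 6 at both ages. Of 4 genes listed for lymphatic endothelium, *Lyve1* and *Pdpn* were called higher at both ages and *Prox1* was not. The lymphatic chemokine gene *Ccl21a* was at 0 CPM on average in every group. Which cells *Lyve1* and *Pdpn* came from was not tested.

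The remaining genes of the pathway were followed by lists, none of which was tested as a set. For comparison with each list, 9.89% of all genes were called higher and 9.23% lower in young ICH mice (median log2FC 0.02). In aged ICH mice 7% of all genes were called higher and 6.15% lower (median 0.00). Of 11 tested coreceptors and partners of the receptors, 4 were called higher after ICH in young mice and 0 lower (median log2FC 0.25), and 4 higher and 1 lower in aged mice (median 0.14). The 4 called in young mice were each also called in aged mice: *Lrg1*, a TGF-β pathway modulator of vessel growth (log2FC 1.499 in young and 1.052 in aged mice), *Cdh5*, the VE-cadherin that binds VEGFR2 at junctions (0.77 and 0.72), *Itga5* (0.68 and 0.65) and *Itgb1* (0.50 and 0.40), which form the fibronectin receptor. *Itgav*, another integrin, fell in aged mice by 0.24 on the log2 scale.

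Of 20 signal transduction genes, 3 rose and 5 fell in young ICH mice (median log2FC −0.16), and 1 rose and 2 fell in aged ICH mice (median −0.14). The aged counts lay near the shares over all genes. *Nos3*, the endothelial nitric oxide synthase downstream of VEGFR2, rose at both ages (log2FC 0.94 ± 0.11 and 0.57 ± 0.11; edgeR adjusted *P* = 0.00108 and 0.00877). *Sh2d2a*, an adaptor of VEGFR2 that is also expressed in T cells, rose in young mice (2.36), as did *Dok2*, an adaptor also known from blood cells (0.94). *Prkca* and *Prkcb*, protein kinase C genes that neurons also express, fell at both ages (−0.54 and −0.53 in young, −0.47 and −0.44 in aged mice). *Grb2*, an adaptor of receptor tyrosine kinases, fell in young mice (−0.26).

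Among 9 genes of the hypoxia control of *Vegfa*, *Hif1a*, the oxygen-regulated transcription factor subunit, was called higher at both ages (log2FC 0.23 and 0.24), and *Egln2*, a prolyl hydroxylase that marks it for decay, in young mice (0.21; edgeR adjusted *P* = 0.0498). None of the 9 was called lower. The median log2FC was 0.09 in young and −0.02 in aged mice, and *Vegfa* itself was not called at either age.

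Of 22 endothelial genes induced by VEGF or active in sprouting, 6 rose and 3 fell in young ICH mice (median log2FC 0.25), and 5 rose and 2 fell in aged ICH mice (median 0.09). *Angptl4*, a secreted protein that is also a hypoxia and lipid target, rose most (log2FC 2.72 ± 0.37 in young and 2.04 ± 0.35 in aged mice). *Adm*, the vessel-acting peptide adrenomedullin (1.72 and 1.02), and *Dll4*, the Notch ligand of tip cells (0.83 and 0.80), were also called at both ages. *Notch4*, an endothelial Notch receptor, was called in young mice (0.65) and the chemokine receptor gene *Cxcr4* in aged mice (1.17) and in young mice (1.16). *Hey1*, a Notch target (−0.31 and −0.47), and the early response gene *Egr3*, which neurons also express (−1.18 and −0.62), fell at both ages, and the early response gene *Nr4a1* fell in young mice (−1.24).

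Of 15 tested genes that brake VEGF or release it from the matrix, 6 rose and 3 fell in young ICH mice (median log2FC 0.69), and 4 rose and 2 fell in aged ICH mice (median 0.24). *Thbs1*, the angiogenesis inhibitor thrombospondin-1, changed most (log2FC 4.28 ± 0.45 in young and 3.56 ± 0.42 in aged mice; edgeR adjusted *P* = 0.000745 and 0.00289). *Adamts1*, a protease that binds VEGF-A (1.86 and 1.58), and *Mmp9*, a gelatinase that neutrophils also carry (1.54 and 1.03), rose at both ages. *Thbs2*, another thrombospondin, rose in aged mice (0.76) and in young mice (0.78), and *Sema3g*, an endothelial semaphorin, rose in young mice (0.69). The semaphorins *Sema3a* and *Sema3e* fell at both ages (−0.88 and −0.88 in young, −0.67 and −0.63 in aged mice), as did *Ctgf*, a matrix protein that binds VEGF-A, in young mice (−0.50). In both age comparisons 0 genes of these 5 lists were called.

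For the 4 genes called after ICH, the genes with the most alike pattern were sought among 16822 genes by the root mean square difference of centred log2 CPM over the 12 libraries. *Pgf* was closest to *Cp* (0.193), the iron oxidase ceruloplasmin, then to *Gpr65* (0.202) and *Tgm2* (0.214). *Angpt2* was closest to *Ptafr* (0.228), the receptor of platelet-activating factor, then to *Tgif1* (0.232) and *P2ry2* (0.249). *Flt1* was closest to *Card10* (0.0999), *Aifm2* (0.104) and *Zfp677* (0.105), and *Flt4* to *Chst14* (0.170), *Gm43167* (0.173) and *Rhoh* (0.173). For scale, the SD of the genes themselves over the libraries was 0.67 for *Pgf*, 0.98 for *Angpt2*, 0.25 for *Flt1* and 0.47 for *Flt4* on the same log2 scale.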

How the data were processed

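Libraries of the perihematomal caudate putamen from 12 samples were grouped by the age and surgery in their labels. The authors aligned reads to GRCm38.p6 with HISAT2 and counted them with featureCounts (Subread), and they deposited the raw count per gene of each library. The deposited table also holds FPKM, which the authors scaled to transcript length and mapped fragments. The 54833 genes were filtered with filterByExpr (minimum count 10), leaving 21495. Counts were normalized with TMM and tested with edgeR 4.0.16 (R 4.3.3), all 12 samples in 1 fit, with Benjamini-Hochberg adjustment. The standard error of a log2FC is its size divided by the root of the F statistic. On data simulated for young ICH vs. young sham, 64.6% of genes changed by a log2FC of 1 and 89.8% of those changed by 2 were recovered. log2 CPM used a prior count of 2 and FPKM ratios added 0.01. Ratios were compared with two-sided exact permutation tests. DESeq2 1.42.0 was an alternative test. Gene positions come from GENCODE vM21. The family and the lists were chosen with earlier results of these data known. All 10 genes of the family are named, and from each list the genes with the smallest *P* among those called, at most 4 in each direction and comparison, except that 1 listed gene is not reported here. Replicates differed beyond sampling noise in every pair, and nothing in the labels states what a shared replicate number means. *P* values measure the spread between pools.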

Additional observations from a re-analysis of the deposited data

How the results depend on the processing

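Counts of called genes moved in these settings. For young ICH vs. young sham, 4 genes fell to 2 with only the groups compared in the fit and with the 3 choroid-rich libraries left out, a setting added after the data were seen; the range with 1 library left out was 2 to 4. For aged ICH vs. aged sham, 2 fell to 1 without the choroid-rich libraries, with a leave-one-out range of 1 to 3. For aged vs. young mice, 0 became 2 under sham and 1 under ICH with DESeq2, and 1 under sham by the study's thresholds on the edgeR values. Why these tests differ was not tested. DESeq2 size factors in edgeR and no filter on low counts left these 5 counts within 1.5 times. Across all genes, the aged sham vs. young sham calls rose from 22 to 282 with DESeq2 (145 higher and 137 lower) and to 77 without the filter, and the aged ICH vs. young ICH calls from 12 to 189 and 61; with the replicate block they were 12 and 8.

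With a replicate block, *Flt1* lost its call in young mice (log2FC 0.41, edgeR adjusted *P* = 0.0553) and no other call of the family changed. Of 18 pairs with the same number, 5 correlated above 0.1 (median r −0.04), against 13 of 36 pairs with other numbers (median r 0.01). Of the 12 samples, 1 correlated best with its own number. The numbers were not treated as pairs, as nothing in the labels states what they mean. With 3 libraries per group, these correlations cannot tell whether equal numbers mark a pair.

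With *Cldn5*, *Pecam1* and *Cdh5* as the markers, the relative level of *Kdr* in aged ICH vs. young ICH reversed to −0.000721 and that of *Flt4* in aged ICH vs. aged sham to −0.196.

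Other changes of sign were in values that were not called. Without the choroid-rich libraries the log2FC in aged ICH vs. aged sham was −0.11 for *Flt1* and −0.27 for *Angpt1*, and that in aged ICH vs. young ICH −0.048 for *Vegfb*, 0.30 for *Pgf*, −0.042 for *Flt1* and 0.0034 for *Kdr*. With 1 library left out, the log2FC ranged on both sides of 0 as follows. In young ICH vs. young sham it ran from −0.071 to 0.058 for *Vegfb* and −0.044 to 0.28 for *Vegfc*. In aged ICH vs. aged sham it ran from −0.090 to 0.053 for *Vegfb*, −0.0035 to 0.17 for *Flt1* and −0.094 to 0.17 for *Angpt1*. In aged sham vs. young sham it ran from −0.049 to 0.27 for *Vegfc* and −0.39 to 0.13 for *Angpt1*. In aged ICH vs. young ICH it ran from −0.0051 to 0.11 for *Vegfb*, −0.29 to 0.068 for *Pgf* and −0.20 to 0.14 for *Kdr*. The interaction ran from −0.056 to 0.10 for *Vegfa*, −0.10 to 0.047 for *Vegfb*, −0.12 to 0.24 for *Pgf* and −0.52 to 0.00046 for *Angpt1*. Relative levels ran from −0.089 to 0.025 for *Flt1* in young ICH vs. young sham, −0.062 to 0.14 for *Kdr* in aged ICH vs. young ICH and −0.0037 to 0.16 for *Flt4* in aged ICH vs. aged sham. The *Flt1* to *Kdr* ratio ran from −0.17 to 0.029 (log2) in aged sham vs. young sham and −0.049 to 0.24 in aged ICH vs. young ICH.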
